A study of Mus musculus with 28 samples.

Results

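The urea cycle genes, 8 of the 18193 genes with a probe set of their own on the arrays, were chosen by name: the enzymes Nags, Cps1, Otc, Ass1, Asl and Arg1 and the carriers Slc25a15 and Slc25a13. They were read by 11 probe sets that name a member alone, and by 1 more that names Ass1 together with Gm5424, of 45037 in all. Where a gene had several probe sets of its own, the one of highest mean over the 28 arrays stood for it, as its lead probe set. Liver RNA of female C3H/HeN mice, 5 weeks old at the start of the experiment, was measured on whole-genome Affymetrix arrays, 1 mouse to an array. The livers were taken after 1 week of acclimation, 1 week of free feeding on the diets and 4 weeks at 12 g of liquid diet per day. The diets held ethanol with 50 mg of ellagic acid per kg body weight per day (labelled Et+ella, here EtOH plus EA), ethanol with as much trans-resveratrol (Et+res, here EtOH plus RSV), ethanol alone (EtOH), or neither (control, with maltose/dextrin in place of ethanol and the same casein). There were 4 wild-type (WT) mice per diet, and 3 CAR-deficient mice per diet, which lack the nuclear receptor encoded by Nr1i3.

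The cycle turns ammonia into urea in liver, above all in hepatocytes near the portal vein. Inside the mitochondrion Nags makes N-acetylglutamate, without which Cps1 is inactive. Cps1 joins ammonia and bicarbonate into carbamoyl phosphate, and Otc passes that on to ornithine to make citrulline. In the cytosol Ass1 couples citrulline to aspartate, Asl splits the product into arginine and fumarate, and Arg1 cuts arginine into urea and ornithine. Slc25a15 exchanges ornithine for citrulline across the inner mitochondrial membrane, and Slc25a13, also called citrin, exports the aspartate that Ass1 uses. In liver these genes are known to respond to protein intake, glucagon and glucocorticoids.

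In the RefSeq annotation of GRCm38.p6 the enzymes that make carbamoyl phosphate and citrulline lie at chr11:102145513-102149528 (Nags), chr1:67122426-67231267 (Cps1) and chrX:10252230-10321024 (Otc). Ass1 lies at chr2:31470270-31520670, Asl at chr5:130011258-130024381, Arg1 at chr10:24915207-24927470, Slc25a15 at chr8:22375550-22398621 and Slc25a13 at chr6:6041218-6217304. Gm5424, which shares a probe set with Ass1, is annotated as a transcribed pseudogene at chr10:62071022-62072571. Promoter sequence of 300 bases around the start of the gene was at hand for Ass1, Slc25a13, Slc25a15, Nags and Otc. Those of Nags, which was higher with all 3 ethanol diets in WT mice, and of Otc, whose lead probe set was called in none, are shown on the plus strand from RefSeq (GRCm38.p6), at chr11:102145263-102145562 and chrX:10252055-10252354, with motif matches in capitals.
Nags: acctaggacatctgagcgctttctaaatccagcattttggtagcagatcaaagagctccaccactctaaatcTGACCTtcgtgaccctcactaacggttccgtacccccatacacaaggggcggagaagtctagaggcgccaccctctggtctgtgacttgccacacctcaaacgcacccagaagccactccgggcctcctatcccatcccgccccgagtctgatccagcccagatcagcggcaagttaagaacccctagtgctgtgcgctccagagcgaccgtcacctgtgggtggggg
Otc: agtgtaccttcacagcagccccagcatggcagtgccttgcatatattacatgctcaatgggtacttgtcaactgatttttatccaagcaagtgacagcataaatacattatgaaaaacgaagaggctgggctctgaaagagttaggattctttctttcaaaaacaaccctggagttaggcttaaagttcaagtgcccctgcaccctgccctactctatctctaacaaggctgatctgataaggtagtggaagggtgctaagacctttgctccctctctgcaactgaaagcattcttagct
Searched on both strands were the cAMP response element TGACGTCA, the nuclear receptor hexamer AGGTCA, the C/EBP palindrome TTGCGCAA and the glucocorticoid receptor hexamer TGTTCT. The Nags window held 1 match, AGGTCA on the minus strand, which reads TGACCT as printed and overlaps no other motif searched. The Otc window held 0 matches, as did the windows of Ass1, Slc25a13 and Slc25a15, which are not shown. Of 32851 promoters of the same length, 16.3% held AGGTCA, 19.0% TGTTCT, 1.79% TGACGTCA and 0.183% TTGCGCAA.

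All values are on the log2 scale of Distribution Free Weighting (DFW), which rescales each probe set, so a difference is not a calibrated log2 fold change, and levels of different probe sets or of the 2 genotypes were not set against each other. Differences were tested with limma over all probe sets of a genotype and called at a Benjamini-Hochberg adjusted p under 0.05. Of all probe sets, 85.3% in WT and 79.3% in CAR-deficient mice varied by a standard deviation (SD) of at most 0.01, and none of the members' did. The mean correlation of an array with the others of its genotype was 0.992 to 0.996 in WT mice. In CAR-deficient mice it was 0.983 for EtOH replicate 1, which stood apart, and 0.989 to 0.993 for the rest. The probe set of Nr1i3, the targeted gene, read 8.55 to 9.49 in CAR-deficient livers and 8.96 to 10.10 in WT livers, but since the genotypes were summarised apart this does not check the genotype labels.

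With each ethanol diet, cycle genes were higher than on the control diet in WT mice, and none was lower. Asl, Nags and Arg1 rose with EtOH plus EA, with EtOH plus RSV and with EtOH, and Cps1 rose with EtOH plus RSV. That is 3 of 8 members higher with EtOH plus EA, 4 with EtOH plus RSV and 3 with EtOH. These counts read each gene by its lead probe set, which for Ass1 is dim. The brighter probe set that Ass1 shares with Gm5424 was higher with each ethanol diet. A further Otc probe set was higher with EtOH plus EA and with EtOH plus RSV. Among all probe sets, 6.06%, 9.07% and 2.2% were higher in these comparisons and 8.15%, 10.7% and 3.35% lower. Among lead probe sets with an SD above 0.01, 15.2%, 14.3% and 6.69% were higher and 27.8%, 31% and 11.7% lower. The median difference over the 8 members was 0.15 with EtOH plus EA, 0.27 with EtOH plus RSV and 0.19 with EtOH, whereas over those lead probe sets it was -0.05, -0.06 and -0.04. The 3 comparisons share the same control arrays.

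**Figure D1:**
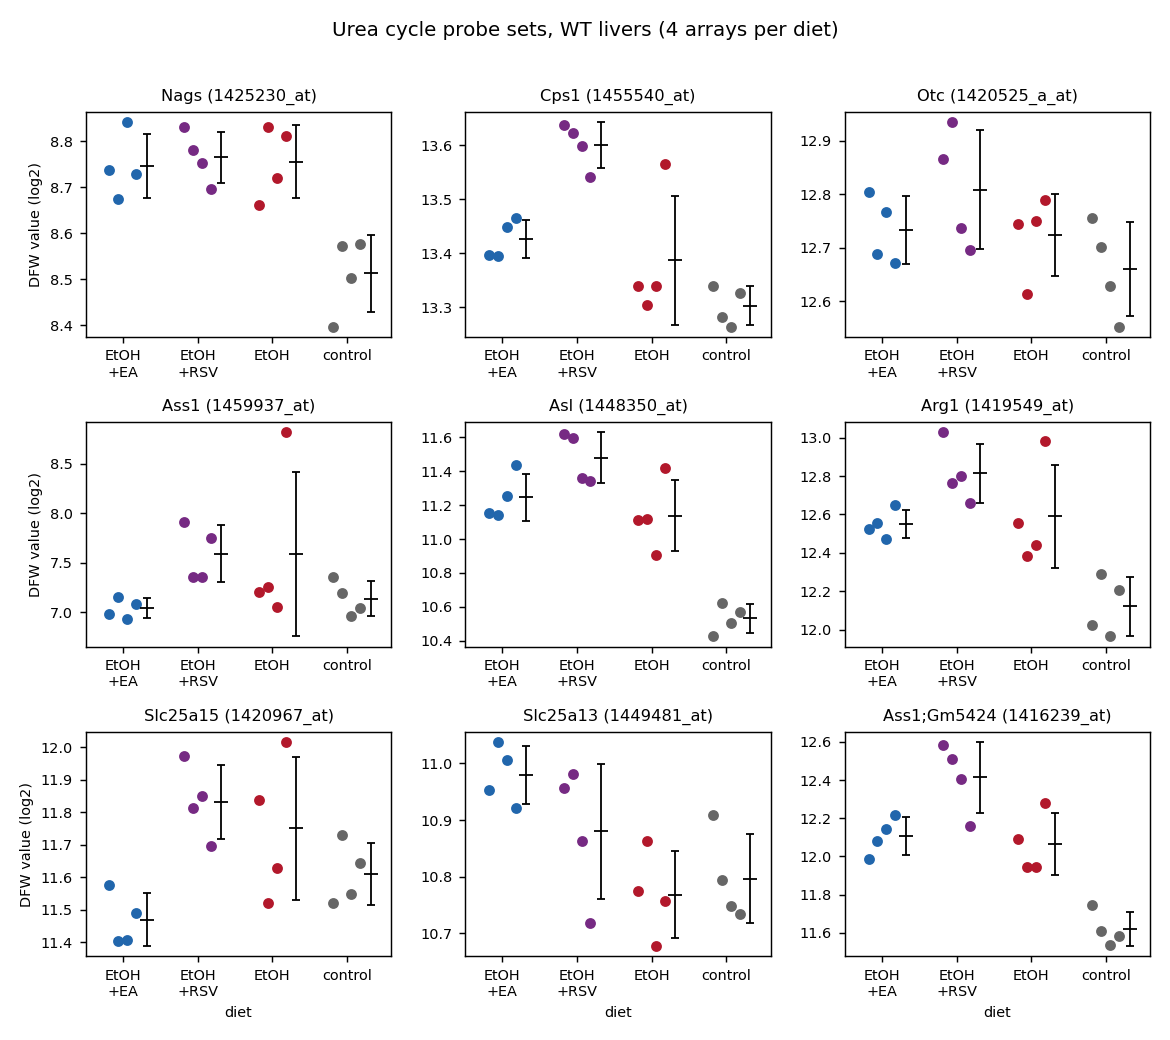
DFW values (log2) of the 8 lead probe sets and of the probe set shared by Ass1 and Gm5424 in WT livers on each diet; points are arrays, and the bar beside them is the mean ± SD (n = 4). For Nags, Asl, Arg1 and the shared probe set every array of the 3 ethanol diets lies above all 4 control arrays, and each panel has its own axis.

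Among the mitochondrial enzymes, Nags (1425230_at) read 8.74, 8.67, 8.84 and 8.73 in WT livers with EtOH plus EA, 8.83, 8.78, 8.75 and 8.70 with EtOH plus RSV, 8.66, 8.83, 8.72 and 8.81 with EtOH, and 8.40, 8.57, 8.50 and 8.58 on the control diet. None of the 12 arrays on an ethanol diet overlapped the control arrays, and the 3 ethanol diets overlapped one another. The difference from control was 0.23 with EtOH plus EA (adjusted p = 0.00968), 0.25 with EtOH plus RSV (adjusted p = 0.00572) and 0.24 with EtOH (adjusted p = 0.0186, limma), each with a standard error of 0.051.

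Cps1 (1455540_at), the ammonia-fixing step, read 13.40, 13.40, 13.45 and 13.46 with EtOH plus EA, 13.64, 13.62, 13.60 and 13.54 with EtOH plus RSV, 13.34, 13.30, 13.34 and 13.56 with EtOH, and 13.34, 13.28, 13.26 and 13.33 on the control diet. All arrays with either polyphenol lay above control, while with EtOH only replicate 5 did so clearly. The difference was 0.30 with EtOH plus RSV (standard error 0.048, adjusted p = 0.00167), 0.12 with EtOH plus EA (adjusted p = 0.104) and 0.08 with EtOH (adjusted p = 0.334).

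For Otc the 3 probe sets did not read alike. The lead (1420525_a_at) differed from control by 0.07 with EtOH plus EA, 0.15 with EtOH plus RSV and 0.06 with EtOH, was called in none, and its diets overlapped. The probe set 1436615_a_at read 11.59, 11.42, 11.56 and 11.46 with EtOH plus EA, 11.55, 11.61, 11.48 and 11.51 with EtOH plus RSV, 11.36, 11.32, 11.43 and 11.48 with EtOH, and 11.27, 11.40, 11.24 and 11.32 on the control diet. It was higher than control with EtOH plus EA by 0.20 (adjusted p = 0.0183) and with EtOH plus RSV by 0.23 (adjusted p = 0.00795), and with EtOH the difference was 0.09 (adjusted p = 0.316). The dim probe set 1425540_at was not called in any comparison, with differences from control of -0.02, 0.13 and -0.15.

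In the cytosol, Asl (1448350_at), the enzyme that releases arginine, had the largest differences of the lead probe sets. It read 11.15, 11.14, 11.25 and 11.44 with EtOH plus EA, 11.62, 11.60, 11.36 and 11.34 with EtOH plus RSV, 11.12, 11.12, 10.90 and 11.42 with EtOH, and 10.43, 10.62, 10.51 and 10.57 on the control diet. Every ethanol array was above every control array, by at least the gap between 10.90 and 10.62. The difference was 0.72 with EtOH plus EA (adjusted p = 0.00113), 0.95 with EtOH plus RSV (adjusted p = 0.000255) and 0.61 with EtOH (adjusted p = 0.00803), with a standard error of 0.11 in each.

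Arg1 (1419549_at), which releases the urea, read 12.52, 12.55, 12.47 and 12.65 with EtOH plus EA, 13.03, 12.76, 12.80 and 12.66 with EtOH plus RSV, 12.55, 12.38, 12.44 and 12.98 with EtOH, and 12.02, 12.29, 11.97 and 12.21 on the control diet. Again no ethanol array overlapped control, although EtOH replicate 5 lay well above the other EtOH arrays. The difference was 0.43 with EtOH plus EA (adjusted p = 0.0355), 0.69 with EtOH plus RSV (adjusted p = 0.00295) and 0.47 with EtOH (adjusted p = 0.0455), with a standard error of 0.12. Leaving out 1 array in turn, the Arg1 call was lost in 7 of 8 cases with EtOH plus EA (kept without control replicate 2, adjusted p 0.0362 to 0.0947 over the 8) and in 7 of 8 with EtOH (kept without EtOH replicate 3, adjusted p 0.0364 to 0.117). It was kept in 8 of 8 with EtOH plus RSV.

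Ass1, the entry of aspartate into the cycle, was read by a dim probe set of its own (1459937_at) and by the brighter one that also names Gm5424 (1416239_at). The first read 6.98, 7.15, 6.93 and 7.09 with EtOH plus EA, 7.92, 7.35, 7.36 and 7.75 with EtOH plus RSV, 7.20, 7.26, 7.06 and 8.82 with EtOH, and 7.35, 7.19, 6.96 and 7.04 on the control diet. Its EtOH mean rested on replicate 5, and limma called the probe set in no comparison of the main fit (all 4 diets, all probe sets, no replicate block). By the rank product test it was higher than control with EtOH plus RSV and with EtOH. The EtOH arrays other than replicate 5 lay within the control range. With EtOH plus RSV it was also called by limma with the replicate number as a block (adjusted p = 0.0378). In that comparison the numbers did not pair the arrays, with a correlation of deviations of -0.147 for replicate 3. The shared probe set read 11.98, 12.08, 12.14 and 12.22 with EtOH plus EA, 12.58, 12.51, 12.41 and 12.16 with EtOH plus RSV, 12.09, 11.94, 11.94 and 12.28 with EtOH, and 11.74, 11.61, 11.54 and 11.58 on the control diet. It was higher than control without overlap in all 3 comparisons, by 0.49 with EtOH plus EA (adjusted p = 0.00569), 0.80 with EtOH plus RSV (adjusted p = 0.000396) and 0.45 with EtOH (adjusted p = 0.0212). Which of Ass1 and Gm5424 gave that signal cannot be told apart.

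Neither carrier was called by limma against the control diet in the main fit, although some alternatives called one. Slc25a15 (1420967_at), the ornithine carrier, read 11.58, 11.40, 11.41 and 11.49 with EtOH plus EA, 11.97, 11.81, 11.85 and 11.70 with EtOH plus RSV, 11.84, 11.52, 11.63 and 12.02 with EtOH, and 11.52, 11.73, 11.55 and 11.64 on the control diet. It differed from control by -0.14 with EtOH plus EA, 0.22 with EtOH plus RSV and 0.14 with EtOH (adjusted p = 0.37, 0.125 and 0.434), so that its sign with EtOH plus EA was opposite to that of Nags, Cps1, Asl and Arg1. Its dimmer probe set (1420966_at) differed by -0.22, 0.07 and 0.10, and with EtOH plus EA its arrays all lay below control (adjusted p = 0.149). By the rank product test the lead was higher with EtOH plus RSV.

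Slc25a13 (1449481_at), the aspartate carrier, read 10.95, 11.04, 11.01 and 10.92 with EtOH plus EA, 10.96, 10.98, 10.86 and 10.72 with EtOH plus RSV, 10.78, 10.86, 10.68 and 10.76 with EtOH, and 10.91, 10.79, 10.75 and 10.73 on the control diet. Its arrays with EtOH plus EA were above all those on the control diet, by 0.18 on average (adjusted p = 0.0569). Of 14 alternative settings 7 called this difference, among them the rank product test, the replicate block (adjusted p = 0.0295) and the omission of control replicate 1 (adjusted p = 0.0348). The difference was 0.08 with EtOH plus RSV (adjusted p = 0.337) and -0.03 with EtOH (adjusted p = 0.827).

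**Figure D2:**
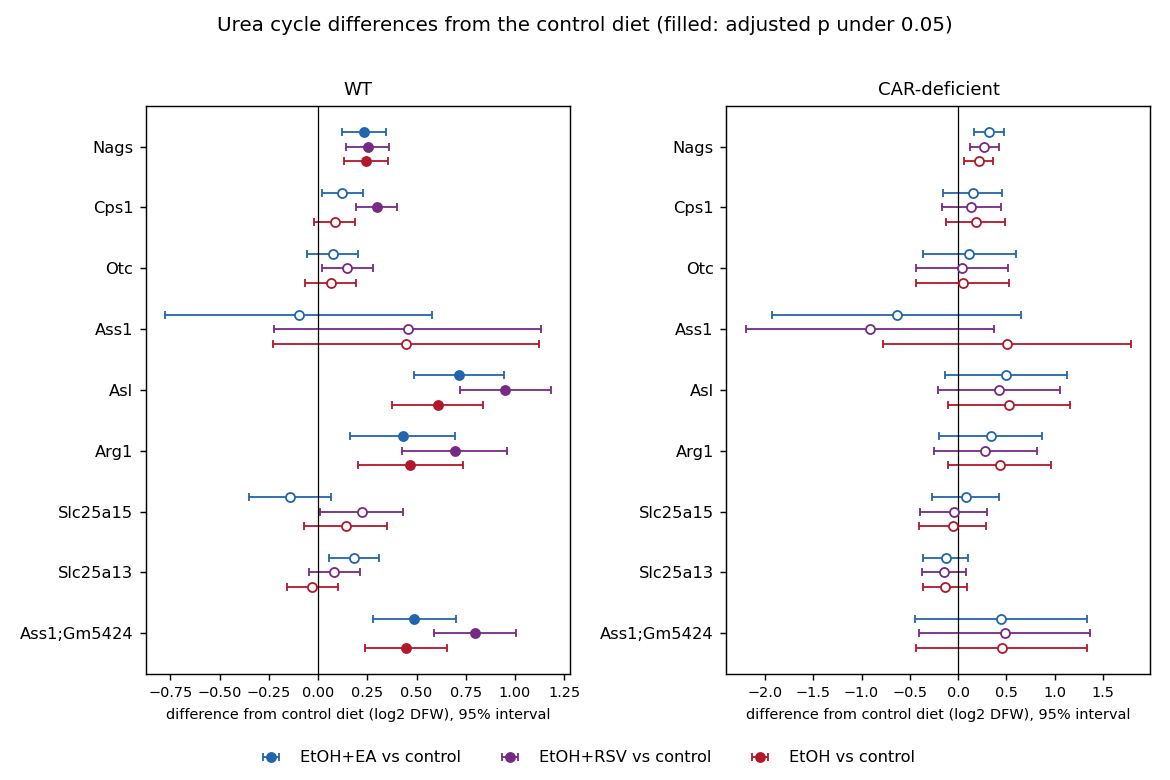
Difference from the control diet (log2 DFW) with its 95% interval for the 8 lead probe sets and the shared Ass1 and Gm5424 probe set, in WT (left) and CAR-deficient livers (right, wider axis); filled points had an adjusted p under 0.05. In WT livers Nags, Asl, Arg1 and the shared probe set are filled for all 3 diets and Cps1 for EtOH plus RSV, and in CAR-deficient livers no point is filled.

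The calls with EtOH in WT mice depended on the fit. With only the EtOH and control arrays fitted, 0 of 8 members passed, with adjusted p = 0.0622 for Asl, 0.0948 for Nags and 0.168 for Arg1. With EtOH plus EA, deviations of arrays correlated with those of the control arrays of the same replicate number. This pairing was seen in the data and is not in the labels, and arrays of unlike number were not looked at. The EtOH plus RSV and EtOH arrays did not all pair with control (lowest correlations -0.147 and -0.0778), yet the block spans all 4 diets. With the number as a block in the limma fit of all 4 diets, 5 of 8 members were higher. They were Cps1 (adjusted p = 0.0183) and Slc25a13 (adjusted p = 0.0295) in addition to the other 3. For this comparison that fit called 6809 of 45037 probe sets in either direction. The further calls of Cps1 and Slc25a13 with the block rest on a pairing seen in these same data. Without overlap with control, 5 of 8 members were higher with EtOH plus EA, 4 with EtOH plus RSV and 3 with EtOH, beside 21.4%, 16.5% and 9.8% of lead probe sets with an SD above 0.01.

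Between the ethanol diets limma called no member in the main fit, and few probe sets were called. For EtOH plus EA against EtOH, 1.1% of all probe sets were higher and 1.26% lower. The members split by sign, 4 and 4, with Slc25a13 at 0.21 (95% interval 0.08 to 0.34, adjusted p = 0.0872, without overlap, as were 10.4% of lead probe sets with an SD above 0.01 on the higher side) and Slc25a15 at -0.28 (-0.49 to -0.07, adjusted p = 0.165) the only ones with an unadjusted p under 0.05. For EtOH plus RSV against EtOH, where 0.155% of probe sets were higher and 0.209% lower, all 8 members had a positive difference, Cps1 with 0.21 (0.11 to 0.32, adjusted p = 0.0784) and Asl with 0.34 (0.11 to 0.57, adjusted p = 0.165) having an unadjusted p under 0.05. Without EtOH replicate 5, Cps1 was higher with EtOH plus RSV than with EtOH by 0.27 (adjusted p = 0.00654).

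EtOH plus EA and EtOH plus RSV were given at the same dose and time, and 8 lead probe sets were compared, with p-values adjusted over all probe sets. EA is a dilactone derived from gallic acid and RSV a stilbene. None of the 8 differences was called, and 0.00666% of all probe sets were higher and 0.0178% lower with EA. For 7 of 8 members the value was lower with EA, and for Cps1 (-0.17, 95% interval -0.28 to -0.07), Ass1 (-0.55, -1.23 to 0.12), Arg1 (-0.26, -0.53 to 0.00) and Slc25a15 (-0.36, -0.57 to -0.15) the arrays with EA lay below all with RSV, beside 3.97% of lead probe sets with an SD above 0.01. The adjusted p was 0.39 for Cps1 and Slc25a15, 0.572 for Arg1 and 0.64 for Ass1. An unadjusted p under 0.05 was seen for 3 members, Cps1, Slc25a15 and Asl (-0.24, -0.47 to -0.01, with overlap). The Ass1 values are those of its dim probe set, and the probe set shared with Gm5424 differed by -0.31 with overlap (adjusted p = 0.421, limma). By the rank product test, 5 members were lower with EA, beside 467 lower and 522 higher of all 45037 probe sets. For Nags the difference was -0.02 (-0.13 to 0.09) and for Otc -0.08 (-0.21 to 0.05).

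In CAR-deficient mice limma called no member in any of the 6 comparisons, and fewer probe sets were called in all. With EtOH plus EA 0.0933% of probe sets were higher than on the control diet, with EtOH plus RSV 0.0333% and with EtOH 0.178%, and 0.0866%, 0.0267% and 0.167% were lower. At an unadjusted p under 0.05, 1 member passed in each of these, Nags, and by the rank product test Ass1 was lower with EtOH plus EA and with EtOH plus RSV. Whether the diets' effects differ between the genotypes was not tested.

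Nags read 9.68, 9.57 and 9.64 with EtOH plus EA, 9.47, 9.60 and 9.67 with EtOH plus RSV, 9.53, 9.49 and 9.54 with EtOH, and 9.44, 9.22 and 9.26 on the control diet of CAR-deficient mice. No ethanol array overlapped control, although control replicate 1 lay close to the lowest of them. The difference was 0.32 with EtOH plus EA (95% interval 0.17 to 0.47, adjusted p = 0.107), 0.27 with EtOH plus RSV (0.12 to 0.42, adjusted p = 0.186) and 0.21 with EtOH (0.06 to 0.36, adjusted p = 0.251). Nags was the only member without overlap on the higher side in these comparisons, 1 of 8, beside 18.7%, 16% and 15% of lead probe sets with an SD above 0.01.

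**Figure D3:**
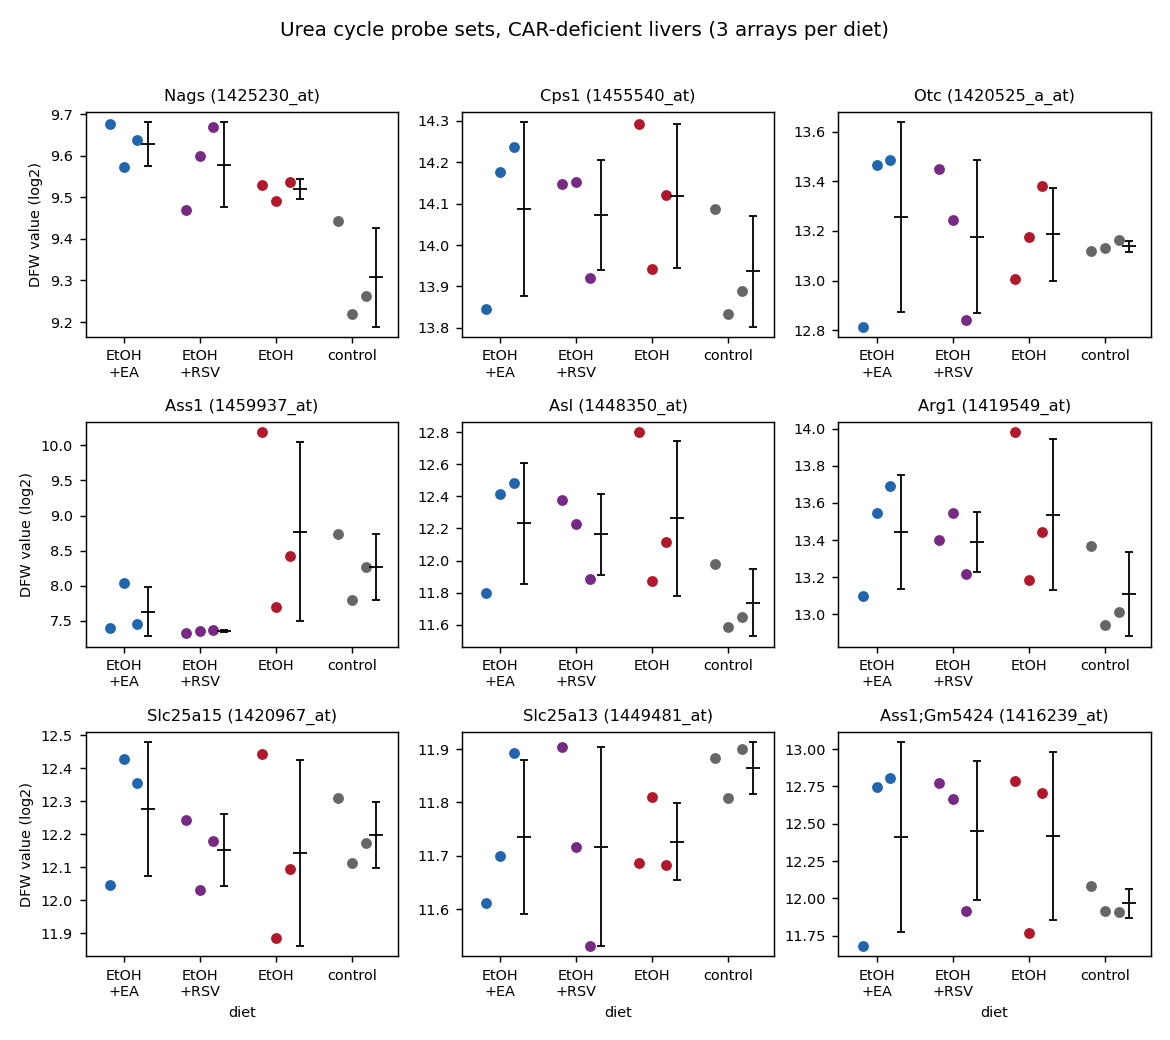
DFW values (log2) of the same probe sets in CAR-deficient livers on each diet; points are arrays, and the bar beside them is the mean ± SD (n = 3). For Nags the 9 ethanol arrays lie above the 3 control arrays, whereas for Asl, Arg1 and the shared probe set the ethanol arrays spread widely and reach the control values.

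Asl read 11.79, 12.41 and 12.48 with EtOH plus EA, 12.38, 12.23 and 11.89 with EtOH plus RSV, 12.80, 11.87 and 12.11 with EtOH, and 11.98, 11.59 and 11.65 on the control diet of CAR-deficient mice. In each ethanol diet 1 array fell below control replicate 1 and the others lay above all control arrays. The difference was 0.49 with EtOH plus EA, 0.43 with EtOH plus RSV and 0.52 with EtOH, with 95% intervals of -0.14 to 1.13, -0.21 to 1.06 and -0.11 to 1.16 in that order. For Arg1 the differences were 0.34, 0.28 and 0.43, and for the shared Ass1 and Gm5424 probe set 0.44, 0.48 and 0.45. Without EtOH replicate 1, the array that stood apart, the EtOH difference was 0.26 for Asl, 0.21 for Arg1 and 0.21 for Nags.

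The spread of CAR-deficient arrays was shared by several members. EtOH plus EA replicate 1, EtOH plus RSV replicate 3 and EtOH replicate 2 had 1, 1 and 2 of 8 members above every control array. Each of the other 6 ethanol arrays had 5 or 6. In WT mice the number was 5 or 6 with EtOH plus EA, 5 to 8 with EtOH plus RSV and 3 to 7 with EtOH, with 7 in EtOH replicate 5. An array had to exceed 3 control arrays in CAR-deficient mice and 4 in WT mice, so the counts of the genotypes are not comparable. The share of other genes above every control array was not counted, so these numbers have no background beside them. The dim Ass1 probe set of CAR-deficient mice read 10.19 in EtOH replicate 1 against 7.70 and 8.42 in the other EtOH livers, 7.33 to 7.36 with EtOH plus RSV and 7.79 to 8.74 on the control diet. Without that array its EtOH difference from control was -0.20, against 0.51 with it.

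**Figure D4:**
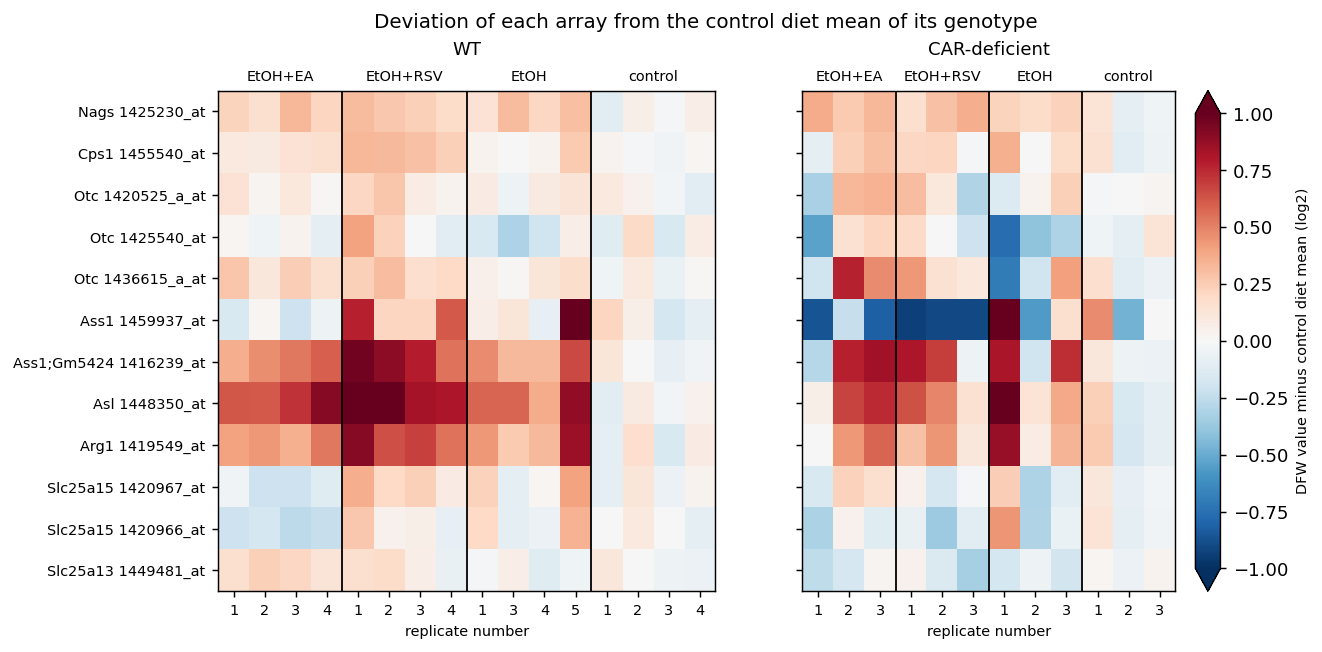
DFW value of each array minus the control diet mean of its genotype (log2, colour, saturated beyond 1) for the 12 urea cycle probe sets (rows) and the arrays by diet and replicate number (columns), WT left and CAR-deficient right. In CAR-deficient livers EtOH plus EA replicate 1, EtOH plus RSV replicate 3 and EtOH replicate 2 are pale across most rows. The dim Ass1 row is dark on the high side for EtOH replicate 5 (WT) and EtOH replicate 1 (CAR-deficient). In CAR-deficient livers that row is also dark on the low side, for the EtOH plus RSV arrays and for EtOH plus EA replicates 1 and 3.

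As a description, most pairs of members correlated positively over arrays, and pairs of other genes were not set beside them. Over the 16 WT arrays, which share diets, the median correlation of 28 pairs of members was 0.52 (-0.31 to 0.93), highest for Asl with Arg1 and lowest for Slc25a15 with Slc25a13. With the diet means taken out it was 0.39, highest for Arg1 with Slc25a15 at 0.89. Over the 12 CAR-deficient arrays the medians were 0.41 and 0.42, and Cps1, Asl and Arg1 correlated with one another at 0.95 to 0.97. Among the 3849 other genes whose lead probe set had an SD above 0.01, those most like Asl over the WT arrays were Gstt3, Hgd and Gpt (r = 0.97, 0.97 and 0.96), and those most like Arg1 were Ggt6, Got1 and Hgd (0.95, 0.95 and 0.95). Got1, the cytosolic aspartate aminotransferase, was also the gene most like Cps1 (0.92). Over the CAR-deficient arrays the most alike were other genes, Slc50a1 for Asl (r = 0.95), Ctsl for Arg1 (0.94) and Sult1a1 for Cps1 (0.94).

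Of 24 listed genes that feed nitrogen to the cycle or draw on its intermediates, 23 were measured. In WT mice 6 were higher and 2 lower than control with EtOH plus EA, 9 higher and 3 lower with EtOH plus RSV, and 3 higher and 0 lower with EtOH. Of lead probe sets with an SD above 0.01, 15.2%, 14.3% and 6.69% were higher and 27.8%, 31% and 11.7% lower in the 3 comparisons, so the 3 of 23 higher with EtOH were near the background. Oat, which turns ornithine into an intermediate of glutamate and proline, was higher with EtOH plus EA by 1.08 (adjusted p = 0.000249), with EtOH plus RSV by 1.23 (adjusted p = 0.00014) and with EtOH by 0.80 (adjusted p = 0.00417). Prodh, proline dehydrogenase, was higher by 1.08, 1.17 and 0.59, and the ammonium transporter Rhbg by 1.16, 0.98 and 0.77 in the same order, all called. Gpt, the alanine aminotransferase, rose by 0.62 with EtOH plus EA and 0.87 with EtOH plus RSV, as did Agmat, agmatinase (0.48 and 0.55), and Slc7a2, a carrier of arginine and ornithine (0.63 and 0.78).

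Got1 was higher by 1.72 (standard error 0.32, adjusted p = 0.0037) with EtOH plus RSV, and its differences with EtOH plus EA (0.97, adjusted p = 0.0624) and with EtOH (0.98, adjusted p = 0.0975) did not pass. The glutamine carrier Slc38a3 (0.37) and the ornithine decarboxylase Odc1 (0.39) were also higher with EtOH plus RSV. Glud1, the mitochondrial glutamate dehydrogenase that yields ammonia, fell by 0.44 with EtOH plus EA and by 0.37 with EtOH plus RSV, and Ddah1, which clears methylated arginines, fell by 0.47 and 0.51. Aqp9, a channel that passes urea, fell by 0.19 with EtOH plus RSV. Against EtOH, EtOH plus EA had Sirt3, a mitochondrial deacetylase, higher by 0.25 (adjusted p = 0.023) and Glud1 lower by 0.31 (adjusted p = 0.0398). In CAR-deficient mice 0 of the 23 were called by limma in the 6 comparisons, and 6, 3 and 2 had an unadjusted p under 0.05 with EtOH plus EA, EtOH plus RSV and EtOH against control.

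**Figure D5:**
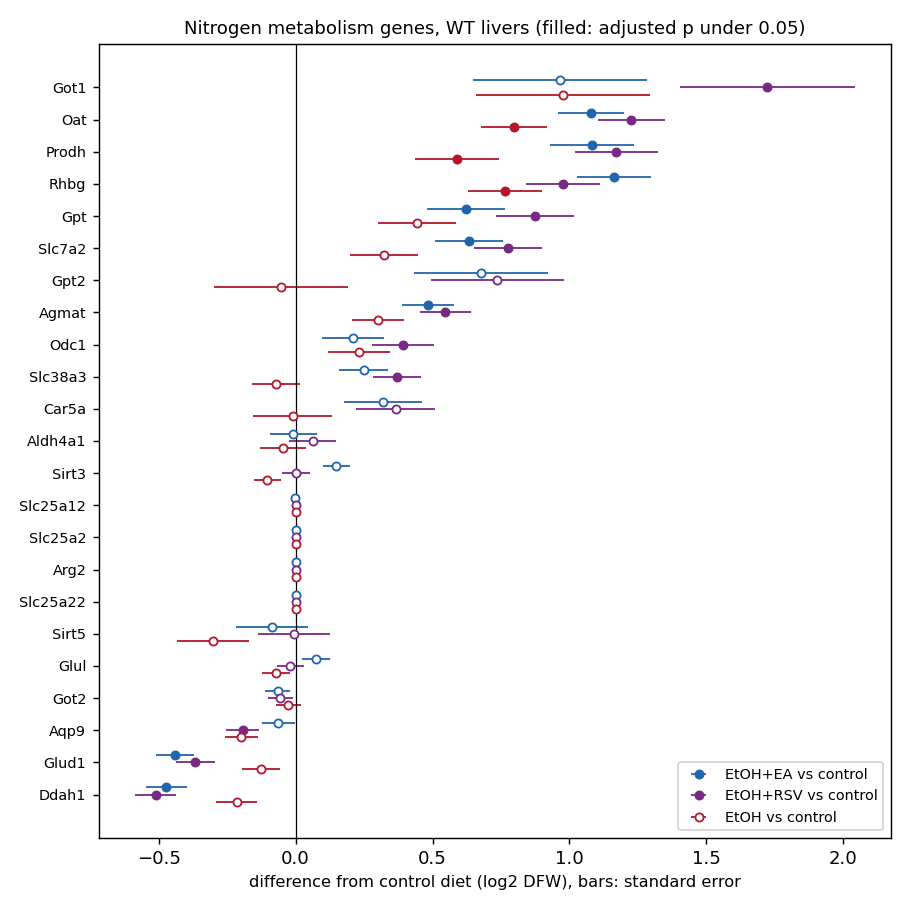
Difference from the control diet (log2 DFW, bars are the standard error) in WT livers for the 23 measured nitrogen metabolism genes with EtOH plus EA, EtOH plus RSV and EtOH; filled points had an adjusted p under 0.05. Oat, Prodh and Rhbg are filled to the right for all 3 diets, Got1 reaches 1.72 with EtOH plus RSV, and Glud1 and Ddah1 are filled to the left with both polyphenols.

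Of 10 listed regulators of the cycle, 4 were higher and 1 lower than control with EtOH plus EA in WT mice, 5 higher and 1 lower with EtOH plus RSV, and 3 higher and 0 lower with EtOH, beside the same shares. Cebpb, a C/EBP factor, was higher by 0.77, 0.93 and 0.65 in that order, and Foxo1, which is active in fasting, by 0.62, 0.61 and 0.35, all called. Klf15, a regulator of amino acid breakdown, was higher with EtOH plus RSV (0.60) and with EtOH (0.45). The glucocorticoid receptor Nr3c1 was higher with EtOH plus EA by 0.27 against control and by 0.32 against EtOH (adjusted p = 0.0329), and with EtOH plus RSV by 0.23 against control. Creb1 fell by 0.26 with EtOH plus EA and by 0.25 with EtOH plus RSV, and the call of Crtc2 rested on a probe set with an SD of at most 0.01. None of the 10 was called by limma in CAR-deficient mice, where 3, 2 and 2 had an unadjusted p under 0.05 with EtOH plus EA, EtOH plus RSV and EtOH against control.

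Some markers of liver cell types were called with the ethanol diets in WT mice. Among lead probe sets with an SD above 0.01, 15.2%, 14.3% and 6.69% were higher with EtOH plus EA, EtOH plus RSV and EtOH. The shares lower were 27.8%, 31% and 11.7%. Of 7 Kupffer cell markers, 6 were lower than control with each of the 3 diets (all but Marco; the call of Timd4 rested on a probe set with an SD of at most 0.01), and the array mean of the list was 8.39 to 8.44 with EtOH plus EA, 8.35 to 8.50 with EtOH plus RSV, 8.36 to 8.52 with EtOH, and 8.59 to 8.70 on the control diet. In bulk liver, fewer cells of a type and less RNA per cell cannot be told apart. Of 6 hepatocyte markers, 3 were lower with EtOH plus EA, 1 with EtOH plus RSV and 1 with EtOH, and the array mean was 14.04 to 14.07, 14.05 to 14.10, 14.08 to 14.13 and, on the control diet, 14.14 to 14.18. The 1 of 6 with EtOH plus RSV was below the share given above, and that with EtOH near it. Alb, Ttr and Serpina1c, none of them called, had an SD of at most 0.01 in WT mice. Of 3 measured periportal genes, Cyp2f2 was higher with EtOH plus EA (0.28) and with EtOH plus RSV (0.28), and of 5 pericentral ones, which include Oat, Slc1a2 was higher with all 3 diets (0.57, 0.39 and 0.41). Of 6 stellate cell markers 2 were higher with EtOH plus EA, 3 with EtOH plus RSV and 0 with EtOH, with Des, whose probe set had an SD of at most 0.01, in both counts. Of 6 sinusoidal endothelium markers 2 were higher with EtOH plus EA, 1 lower with EtOH plus RSV and 1 lower with EtOH. The lists for cholangiocytes (4 genes) and lymphocytes (3 genes) had at most 1 higher and 1 lower, the cholangiocyte calls (Epcam and Sox9) on probe sets with an SD of at most 0.01. Of 3 erythroid markers only Alas2, which starts heme synthesis in red cell precursors, was measured. It was not called in either genotype, but in CAR-deficient mice it read 8.09 to 8.55 with EtOH plus EA, 7.38 to 8.95 with EtOH plus RSV, 7.50 to 8.08 with EtOH, and 9.70 to 10.08 on the control diet. There its differences from control were -1.55, -1.61 and -2.08 (adjusted p = 0.142, 0.151 and 0.0676), with every ethanol array below every control array, and in WT mice they were -0.37, -0.43 and -0.53 (adjusted p = 0.167, 0.0919 and 0.0873). No marker of any list was called in CAR-deficient mice, where the Kupffer cell array mean was 8.77 to 9.02 with EtOH plus EA, 8.86 to 9.06 with EtOH plus RSV, 8.82 to 9.04 with EtOH, and 9.10 to 9.31 on the control diet. The part of these shifts in the differences of the cycle genes was not tested.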

How the data were processed

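Liver RNA of 28 mice, 16 WT and 12 CAR-deficient, had been hybridised to whole-genome Affymetrix mouse arrays. The deposited values are log2 values that the authors made from the probe intensities by DFW in R with Bioconductor, apart for the 2 genotypes. Replicates were not pooled, and no further normalization was applied. Arrays give no read depth, so precision is limited by their number, 4 or 3 per diet. Diets and replicate numbers came from the sample titles. Replicates are separate mice, so p-values measure the spread between mice.

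Of 45101 probe sets, 64 Affymetrix controls were left out, as were 26 blank in CAR-deficient mice, leaving 45037 and 45011. The platform annotation supplied with the series gave 1 gene for 34945 probe sets, several for 932 and none for 9160. All 4 diets of a genotype were fitted together with limma 3.58.1 in R 4.3.3 (lmFit, eBayes), 6 comparisons per genotype, with Benjamini-Hochberg adjustment over all probe sets at 0.05. The limma and rank product steps were tested on simulated data. All members were named whatever their values, and of the nitrogen metabolism and regulator lists those that were called. Members and lists were chosen with earlier results of these data known.

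Alternatives were quantile normalization, a filter that kept probe sets with a level over the median, a filter that kept those with an SD above 0.01, any probe set of the member, the replicate number as a block, only the groups compared, the rank product test that the study's methods name (50 permutations, false discovery rate 0.025), each array left out in turn and, chosen after seeing the data, the probe set shared by Ass1 and Gm5424. The rank product test shuffled values over probe sets within each array, so probe sets of unlike spread were treated alike. Replicate numbers were taken to pair arrays where the deviations from the group means correlated above 0.1 in every pair. That held for EtOH plus EA against control in WT mice (0.156 to 0.568 over 4 pairs) and for EtOH against control in CAR-deficient mice (0.292 to 0.409 over 3 pairs), with the pairing seen in the data and not stated in the labels.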

Additional observations from a re-analysis of the deposited data

Results flagged for a closer look

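Of 48 groups of 4 WT arrays (12 probe sets, 4 diets), 2 held an array far from the rest, and chance alone flags about 1 in 20 such groups. With EtOH, replicate 5 was the highest for Cps1 at 13.56, 0.860 of the group's range above the next array, and for the dim Ass1 probe set at 8.82, with a gap of 0.886 of the range. Both come from the same liver.

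Of 72 pairs of the same comparison in the 2 genotypes, 1 went opposite ways in every array. The dim Ass1 probe set was lower with EtOH plus EA than with EtOH plus RSV in WT mice, by -0.55 with no overlap, and higher in CAR-deficient mice, by 0.28 with no overlap. The difference between the genotypes was not tested, and the shared Ass1 and Gm5424 probe set did not show it.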

How the results depend on the processing

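No called difference of a member changed sign. The sign could not change with the probe set filters, with only the groups compared or by rank product, which leave the difference as it was. The 10 called differences were tested again 140 times in all, and the call held in 121 and was lost in 19. Of 86 differences not called, 29 changed sign under some alternative. In WT mice the members called with EtOH against control numbered 3, against 1 with the replicate block, where EtOH replicate 5 has no partner, and 0 with only those groups fitted. With EtOH plus EA against control they numbered 3, against 5 with an SD above 0.01, with the replicate block or with only those groups fitted, and 4 with quantile normalization, above the median level or by rank product. Taking any probe set of the member added Otc with EtOH plus EA and with EtOH plus RSV against control. The shared probe set added Ass1 with each ethanol diet against control. By rank product EtOH plus RSV against control gave 6 in place of 4 and EtOH against control 4 in place of 3. Over all 45037 probe sets that test called 1359 higher and 1609 lower with EtOH plus EA against control. With EtOH plus RSV it called 1241 and 1593, and with EtOH 797 and 1013. Where the main count was 0, EtOH plus EA against EtOH gave 2 (1 higher, 1 lower) with an SD above 0.01 and 3 (1 higher, 2 lower) by rank product. EtOH plus RSV against EtOH gave 1 above the median level, 2 with an SD above 0.01, 1 with the replicate block, 2 by rank product and 1 without EtOH replicate 5. EtOH plus EA against EtOH plus RSV gave 5, all lower, by rank product, beside 467 probe sets lower and 522 higher. By that test 859 probe sets were higher and 954 lower for EtOH plus EA against EtOH. For EtOH plus RSV against EtOH the numbers were 650 and 655. In CAR-deficient mice the rank product test gave 1, Ass1, lower, in each of EtOH plus EA and EtOH plus RSV against control and against EtOH. Over 45011 probe sets it called 389 and 279 lower with EtOH plus EA and EtOH plus RSV against control, and 58 and 15 lower against EtOH. Besides the changes already given for the replicate block, EtOH plus RSV against control gave 5 in place of 4 with it, and no further count of members changed. The causes were not tested. With the block, limma called 9086 of 45037 probe sets for EtOH plus RSV against control, in either direction. It called 1514 for EtOH against control and 85 for EtOH plus RSV against EtOH. Calls over all probe sets were not counted for the filters, for only the groups compared or with an array left out. The counts of members under those settings thus have no background beside them. Leaving out 1 array in turn gave 2 to 3 with EtOH plus EA, 4 to 4 with EtOH plus RSV and 2 to 3 with EtOH against control, 0 to 1 for EtOH plus RSV against EtOH, and 0 to 0 elsewhere.

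Over all probe sets, quantile normalization gave 14693 higher and 9495 lower with EtOH plus EA (2729 and 3669 without it), 17263 and 7736 with EtOH plus RSV (4084 and 4801), and 11768 and 3466 with EtOH (991 and 1510). The replicate block called 12 probe sets, in place of 80 higher and 75 lower, for EtOH against control in CAR-deficient mice. DFW compresses most probe sets, and 3 or 4 mice per diet limit the precision.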
